A study of Mus musculus with 18 samples.

Results

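The genes described are 8 that encode the Lin28 proteins or are known targets of the let-7 microRNAs: *Lin28a*, *Lin28b*, *Igf2bp1*, *Igf2bp2*, *Igf2bp3*, *Hmga1*, *Hmga2* and *Trim71*. They were chosen by gene symbol from the authors' table of TPM (transcript abundance scaled for transcript length and library size), which lists 24369 genes, and all 8 were found and all 8 passed the low-count filters. The 18 RNA-seq libraries are from E14 mouse embryonic stem cells (mESCs) of the genotype Rex1GFPd2-Cas9, which report *Rex1* (*Zfp42*), a gene of naive pluripotency, with a short-lived GFP and carry Cas9 in *Rosa26* under an EF1α promoter. The 12 libraries of the time course are from wild-type cells at days 0, 1, 2 and 3 of differentiation, with 3 libraries per day. The other 6 are from GFP+ cells of wild-type, *Nprl2* KO and *Tsc2* KO mESCs, with 2 libraries per genotype. *Nprl2* encodes a subunit of Gator1 and *Tsc2* a subunit of the Tsc complex, and both complexes restrain mTORC1, a kinase complex that drives growth. The KO lines were clones with an exon deleted on both alleles, grown with wild-type cells on mitotically inactive fibroblasts in serum and LIF before GFP+ cells were sorted. The methods do not say how the time-course libraries were made, and the labels do not say whether the libraries of a group come from separate cultures or clones, so that p-values measure the spread between these libraries.

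Lin28 proteins and let-7 microRNAs restrain each other. Lin28a and Lin28b bind the loop of let-7 precursors. Precursors bound by Lin28a are then tagged with uridines by the enzymes Tut4 and Tut7 and degraded by Dis3l2. Mature let-7 in turn pairs through its seed with sites in the 3′ untranslated regions (UTRs) of target mRNAs, *Lin28a* and *Lin28b* among them, which lowers their stability and translation. In mESCs the precursors are transcribed while mature let-7 is kept low, and mature let-7 accumulates as cells differentiate. The RNA-seq measured mRNA and gave no reading of mature let-7: of 12 let-7 and miR-98 precursors listed in the files, 9 had no count in any library and the largest count was 3, which is no more than the limit of 3 counts that a count of 0 allows.

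The mature sequences are shown because one seed defines the family. Of 11 mature let-7 and miR-98 sequences in RefSeq for GRCm38.p6, 10 share the seed GAGGUAG (bases 2 to 8, in capitals), and let-7j has GAGGUAU. Of these, 9 are given 5′ to 3′, with the locus of the copy shown, and let-7j and let-7k, which differ from the others in length, are not printed.
let-7a, chr13:48538239-48538260, minus strand: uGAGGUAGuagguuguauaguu
let-7b, chr15:85707325-85707346, plus strand: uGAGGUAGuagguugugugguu
let-7c, chr16:77599672-77599693, plus strand: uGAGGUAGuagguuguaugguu
let-7d, chr13:48536078-48536099, minus strand: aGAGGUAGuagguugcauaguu
let-7e, chr17:17830366-17830387, plus strand: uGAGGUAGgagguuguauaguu
let-7f, chrX:151912353-151912374, plus strand: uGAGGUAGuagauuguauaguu
let-7g, chr9:106178846-106178867, plus strand: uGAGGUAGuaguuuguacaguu
let-7i, chr10:122985698-122985719, minus strand: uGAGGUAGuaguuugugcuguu
miR-98, chrX:151913229-151913250, plus strand: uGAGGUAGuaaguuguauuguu
Outside the seed, these differ from let-7a at 1 to 4 of 22 bases. The letters GGAG, which Lin28 proteins are known to bind, occur after the 5′ arm in 9 of 12 let-7 and miR-98 hairpins.

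Each of the 8 mRNAs carries the letters that pair with this seed. A 3′ UTR was taken for each gene from GENCODE M21 (GRCm38), through the RefSeq transcript in the files, and searched on the transcribed strand for CTACCTC, the 7-base match. All 8 held it, and 7 of 8, all but *Hmga1*, held the 8-base match CTACCTCA, which contains the 7-base one. Among 3′ UTRs of 19271 genes, 8.43% held the 7-base match and 2.91% the 8-base match. The genes were chosen as known let-7 targets, so this share is a description. The first 8-base match of each gene, or the 7-base match of *Hmga1*, is given with the bases around it in lower case.
*Lin28a*, chr4:134005189-134005210, minus strand: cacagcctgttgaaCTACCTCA
*Lin28b*, chr10:45381022-45381043, minus strand: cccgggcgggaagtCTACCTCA
*Igf2bp1*, chr11:95961778-95961799, minus strand: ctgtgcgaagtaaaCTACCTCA
*Igf2bp2*, chr16:22059473-22059494, minus strand: cacacaaataaaagCTACCTCA
*Igf2bp3*, chr6:49086787-49086808, minus strand: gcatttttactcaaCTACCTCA
*Hmga1*, chr17:27563278-27563299, plus strand: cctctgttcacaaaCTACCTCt
*Hmga2*, chr10:120364224-120364245, minus strand: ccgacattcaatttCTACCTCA
*Trim71*, chr9:114512472-114512493, minus strand: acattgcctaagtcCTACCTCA

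The genes differed in how many matches they carried. *Lin28b*, *Igf2bp1*, *Hmga2* and *Trim71* had 4 each, *Lin28a* had 2, and *Igf2bp2*, *Igf2bp3* and *Hmga1* had 1. The 3′ UTR of *Hmga2* is 2977 bases long. Of the 1904 genes with a 3′ UTR within 20% of that length, *Hmga2* itself among them, 0.105% had at least as many matches. For *Lin28b*, with 4445 bases, the share was 0.288% of 1040 genes, again with the gene itself counted. For *Igf2bp3*, with 1 match, 13.1% of genes with a 3′ UTR of like length had 1 or more. Per kilobase the genes had between 0.472 (*Igf2bp3*) and 1.34 (*Hmga2*) matches, against 0.0708 over all 3′ UTRs together. The GENCODE transcript of *Trim71* has 9332 bases and the RefSeq transcript in the files 5197, and only the first 2 of its 4 matches lie within the RefSeq locus of chr9:114511268-114564369. A match is a description of the sequence and no evidence of binding.

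**Figure D1:**
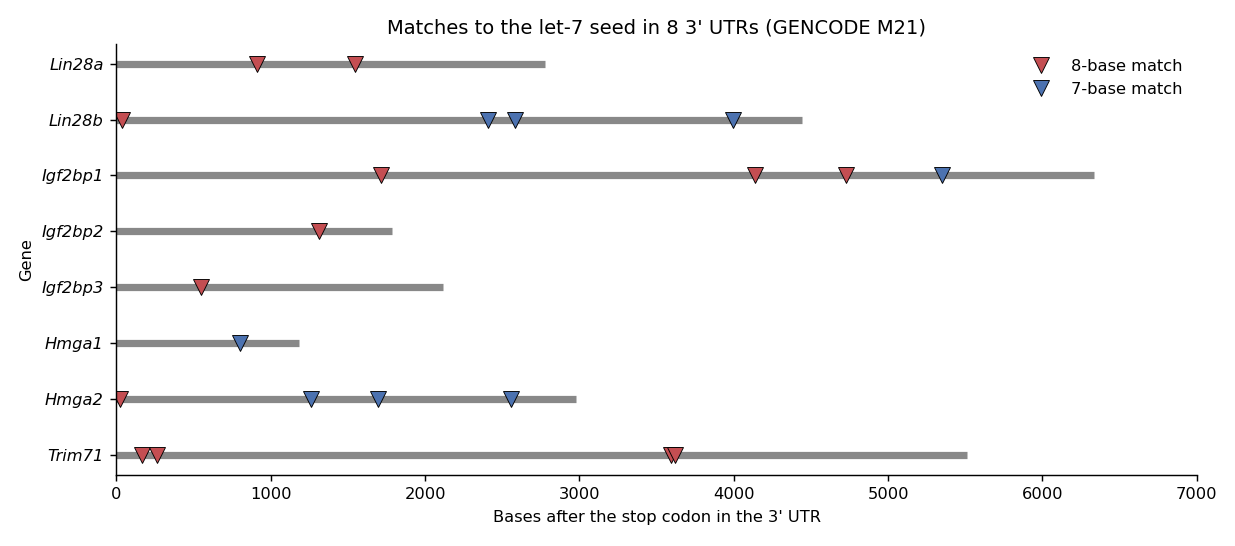
Matches to the let-7 seed along the 3′ UTRs of the 8 genes, in bases after the stop codon. Grey bars give the length of each 3′ UTR, red marks the 8-base matches and blue the other 7-base matches; *Hmga2* has 4 matches over 2977 bases and *Igf2bp3* 1 over 2119.

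The libraries were checked before the genes were compared. Total estimated counts were between 12503005 and 15305054 per library in the time course and between 8610357 and 13780861 in GFP+ cells. *Nprl2* was at 8.09 and 8.65 TPM in *Nprl2* KO and 16.1 and 17 in wild-type GFP+ cells, and *Tsc2* at 18.8 and 20.3 TPM in *Tsc2* KO and 45 and 44.9 in wild-type. *Pou5f1*, a general pluripotency factor, lay between 1102 and 1919 TPM in all 18 libraries. *Zfp42* fell by 6.01 on the log2 scale from day 0 to day 3, and *Fgf5*, a gene of formative pluripotency, rose by 7.18 from day 0 to day 1. A list of 12 fibroblast genes, such as *Col1a1*, was read for feeder cells. It summed to between 11.9 and 48.6 TPM in the time course and between 42.5 and 172 TPM in GFP+ cells. From day 0 to day 3, 5 of the 9 tested were higher and 3 lower, *Dcn* among those higher. *Thy1* was at 3.06 to 5.57 TPM at day 0 and 26.8 to 33.3 TPM at day 3, most of the sum there. *Col1a1* was at 2.98 to 6.59 TPM at day 0 and 1.03 to 1.25 TPM at day 3. The rise of the sum over the days is therefore no measure of feeder cells. Primitive endoderm genes, a list of 9, summed to between 34.7 and 47.3 TPM at day 0 and at most 18.7 TPM in every other group. Most of the day 0 sum was *Lama1*, at between 25.7 and 34.4 TPM. From day 0 to day 3, 6 of the 9 were lower and 2 higher. These are bulk samples, in which more cells of a type and more RNA per cell cannot be told apart.

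In the time course, *Lin28a* and *Lin28b* both rose, on different days. *Lin28a*, on chromosome 4, was at 184, 177 and 228 TPM at day 0 and at 424, 433 and 451 TPM at day 1. The day 1 libraries all lay above the day 0 libraries. Day 2 had 477, 523 and 482 TPM, and day 3 had 420.4, 438 and 472. The rise to day 1 was 1.22 ± 0.08 on the log2 scale (SE, n = 3 per day, 2.33-fold, adjusted p = 3.3e-10 by the quasi-likelihood test of edgeR after Benjamini-Hochberg adjustment, which gives all adjusted p-values below unless another tool is named). In that comparison 60.9% of the genes tested passed the threshold of 0.05. The next steps were 0.07 ± 0.08 from day 1 to day 2 (edgeR adjusted p = 0.454) and -0.20 ± 0.08 from day 2 to day 3 (edgeR adjusted p = 0.0558). That last step passed the threshold under 5 of 20 alternatives, among them the fits without library 2 or without library 3 of day 0 (edgeR adjusted p = 0.0378 and 0.00571).

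*Lin28b*, the paralog on chromosome 10, started far lower and rose for longer. Its libraries were at 9.66, 10.3 and 10.6 TPM at day 0, at 18.3, 19.2 and 19.1 at day 1, at 42.4, 47.0 and 43.7 at day 2 and at 48.5, 45.5 and 57.5 at day 3. The libraries of days 0, 1 and 2 did not overlap, and those of days 2 and 3 did. The log2 fold change was 0.96 ± 0.08 to day 1 (edgeR adjusted p = 4.1e-09) and 1.12 ± 0.07 from day 1 to day 2 (edgeR adjusted p = 2.2e-10). From day 2 to day 3 it was 0.14 ± 0.07 (edgeR adjusted p = 0.133, and 0.0351 without library 2 of day 3). Over the 3 days *Lin28b* rose by 2.22 ± 0.08 on the log2 scale (4.66-fold, edgeR adjusted p = 5.5e-15) and *Lin28a* by 1.09 ± 0.08 (2.13-fold, edgeR adjusted p = 7.3e-10). *Lin28a* remained the more abundant of the pair in each library, by mean TPM 443 ± 26.3 against 50.5 ± 6.26 at day 3 (SD, n = 3).

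**Figure D2:**
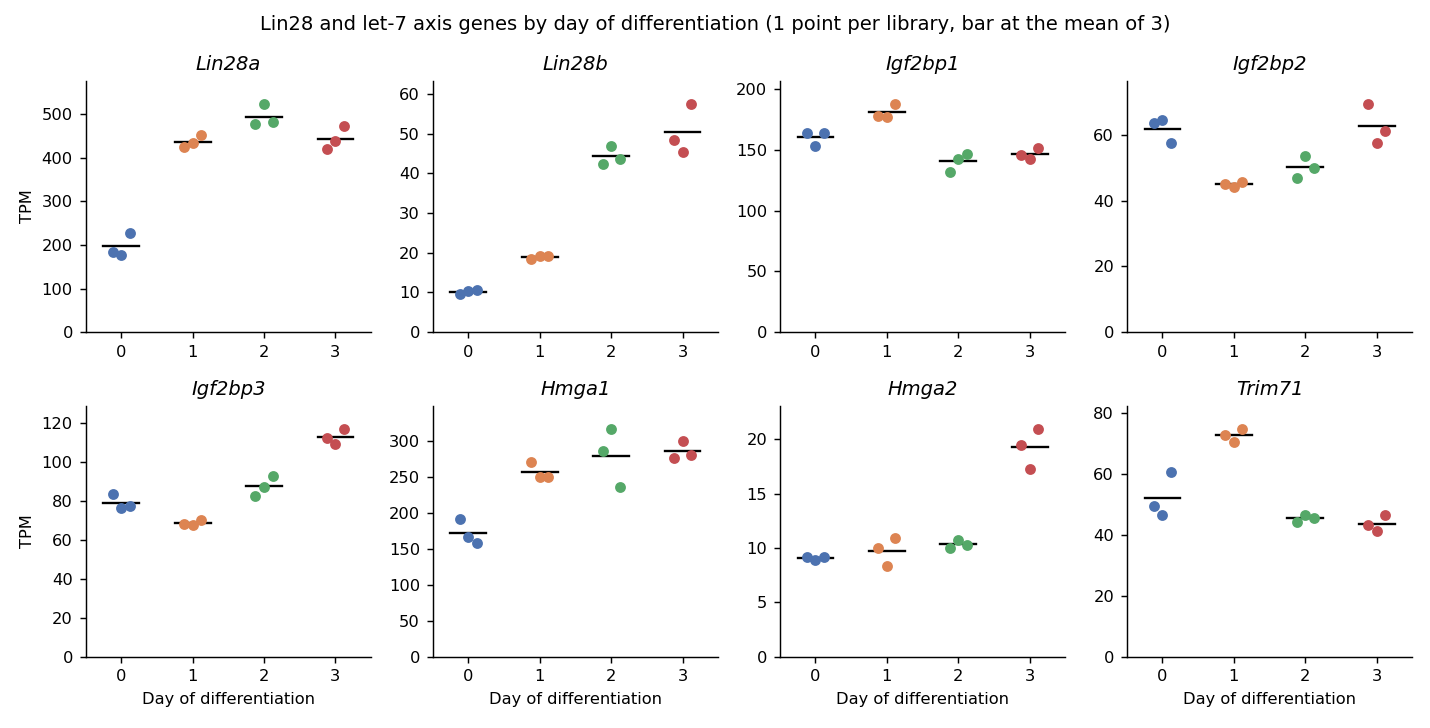
TPM of the 8 genes in each time-course library by day of differentiation, with bars at the mean of 3 libraries and every axis starting at 0. *Lin28a* steps up between days 0 and 1, *Lin28b* climbs from 10.2 to 44.4 by day 2, *Hmga2* rises only at day 3, and *Trim71* peaks at day 1.

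The Igf2bp genes encode RNA-binding proteins that stabilize bound mRNAs and are most abundant in embryonic cells. They moved in different directions. *Igf2bp1* was the highest at every day and changed little: it was at 164, 153 and 164 TPM at day 0, 178, 177 and 188 at day 1, 132, 143 and 147 at day 2 and 146, 143 and 152 at day 3. The day 1 libraries lay above all others. Its log2 fold change was 0.24 ± 0.05 to day 1 (edgeR adjusted p = 3.6e-04), -0.48 ± 0.05 from day 1 to day 2 (edgeR adjusted p = 1.8e-07) and -0.21 ± 0.05 over the 3 days (edgeR adjusted p = 9.7e-04). In the comparison of day 2 with day 1, 62.1% of genes passed. Of these 52.4% were higher at day 2, a share that became 63.1% with limma on log2(TPM + 1), where the median of all genes moved from 0.02 to 0.11.

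*Igf2bp3* rose late. Libraries of day 0 were at 83.2, 76.0 and 77.3 TPM, of day 1 at 68.0, 67.6 and 70.1, of day 2 at 82.4, 87.0 and 92.7 and of day 3 at 112, 109 and 117. Each day 3 library lay above every earlier one. The steps from day 1 to day 2 and from day 2 to day 3 were 0.24 ± 0.05 and 0.33 ± 0.05 on the log2 scale (edgeR adjusted p = 9.2e-04 and 1.9e-04). In the comparison of day 3 with day 2, 31.5% of genes passed. The dip at day 1 was -0.13 ± 0.05 (edgeR adjusted p = 0.0439). It did not pass without any 1 of the day 1 libraries (edgeR adjusted p = 0.101, 0.115 and 0.0827 without libraries 1, 2 and 3), without library 1 or 3 of day 0 (0.195 and 0.0517), without library 3 of day 3 (0.0535), without the filter on low counts (0.0536) or with DESeq2 (0.062). *Igf2bp2* fell at day 1 and had returned by day 3: it was at 63.6, 64.6 and 57.5 TPM at day 0, 45.0, 44.1 and 45.7 at day 1, 46.9, 53.7 and 50 at day 2 and 69.4, 57.5 and 61.1 at day 3. Its log2 fold change was -0.39 ± 0.07 to day 1 (edgeR adjusted p = 1.1e-04) and 0.28 ± 0.07 from day 2 to day 3 (edgeR adjusted p = 0.00683). Days 3 and 0 overlapped, with a difference of -0.07 ± 0.07 (edgeR adjusted p = 0.413, and 0.0475 without library 1 of day 3).

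Hmga1 and Hmga2 are small chromatin proteins that bind AT-rich DNA. *Hmga2* was flat and low until day 2 and then rose: it was at 9.18, 8.91 and 9.22 TPM at day 0, 9.98, 8.34 and 10.9 at day 1, 10, 10.7 and 10.3 at day 2 and 19.5, 17.3 and 21 at day 3. All day 3 libraries were above all others. Day 1 overlapped with days 0 and 2, which did not overlap with each other. The log2 fold change from day 2 to day 3 was 0.85 ± 0.09 (1.81-fold, edgeR adjusted p = 2.8e-06). To day 1 it was 0.17 ± 0.10 (edgeR adjusted p = 0.135, and 0.0267 without library 2 of day 1). *Hmga1* changed earlier, from 192, 167 and 158 TPM at day 0 to 271, 249.8 and 251 at day 1, by 0.65 ± 0.09 on the log2 scale (edgeR adjusted p = 2.1e-05). Its libraries were at 286, 318 and 237 TPM at day 2 and at 277, 301 and 281 at day 3, with day 2 overlapping days 1 and 3 and each day 3 library above each day 1 library in TPM. The fitted steps were 0.01 ± 0.09 from day 1 to day 2 and -0.00 ± 0.09 from day 2 to day 3 (edgeR adjusted p = 0.947 and 0.981). Where reads of *Hmga1* could also have come from other transcripts, kallisto divides them, and the part of this in its values is not reported here.

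*Trim71*, a ubiquitin ligase and RNA-binding protein of early embryos that is a classical let-7 target, peaked at day 1. It was at 49.5, 46.5 and 60.5 TPM at day 0, 72.6, 70.5 and 74.8 at day 1, 44.3, 46.4 and 45.6 at day 2 and 43.2, 41.2 and 46.3 at day 3. Day 1 stood above all other days, and days 2 and 3 overlapped. The steps were 0.55 ± 0.08 up to day 1 (edgeR adjusted p = 4.7e-06) and -0.79 ± 0.08 to day 2 (edgeR adjusted p = 5.2e-08), with -0.35 ± 0.08 over the 3 days (edgeR adjusted p = 5.4e-04).

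Over the 3 days, 5 of the 8 genes were higher (*Lin28a*, *Lin28b*, *Igf2bp3*, *Hmga1* and *Hmga2*), 2 were lower (*Igf2bp1* and *Trim71*) and 1, *Igf2bp2*, did not pass. Of all genes tested, 70.9% passed in the comparison of day 3 with day 0, so that a share of 7 of 8 is near the background. The median log2 fold change of the 8 was 0.54, against -0.01 over all genes. From day 0 to day 1, 5 were higher and 2 lower, where 60.9% of genes passed, with a median of 0.40 for the 8 and 0.00 for all genes. From day 1 to day 2, 2 were higher and 2 lower (background 62.1%, medians 0.03 and 0.02). From day 2 to day 3, 3 were higher and 0 lower (background 31.5%, medians 0.08 and -0.01). *Igf2bp1* and *Trim71* followed each other over the 12 libraries (Pearson r = 0.960), as did *Lin28a* and *Hmga1* (0.897) and *Igf2bp3* and *Hmga2* (0.866). Between *Igf2bp3* and *Trim71* r was -0.795. These values describe 4 days with 3 libraries each, since the libraries of a day are alike.

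Among 12263 genes ranked by r with each gene over the same 12 libraries, *Lin28a* was most like *Bend3* (0.993), *Cbx5* (0.989) and *Dusp6* (0.988). *Lin28b* was most like *St6gal1*, *Fndc3c1* and *Jakmip2* (0.996 each). *Trim71* was most like *Psmd4* (0.984), *Ube2d3* (0.984) and *Eif3g* (0.982), and *Hmga2* was most like *Prnp* (0.955), *Cbr1* (0.955) and *Actg1* (0.946).

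In GFP+ *Tsc2* KO cells 5 of the 8 genes were lower than in wild-type and 2 were higher, where 29.1% of all genes passed, and *Hmga2* changed the most. The median log2 fold change of the 8 was -0.48, against 0.00 over all genes. *Hmga2* was at 5.10 and 5.40 TPM in wild-type, 3.24 and 3.26 in *Nprl2* KO, against 20.5 and 21.7 in *Tsc2* KO. No genotypes overlapped. It was 3.94-fold higher in *Tsc2* KO than in wild-type, by 1.98 ± 0.12 on the log2 scale (SE, n = 2 per genotype, edgeR adjusted p = 9.5e-07), and passed under 14 of 14 alternatives. Embryonic fibroblasts use *Hmga2*, and the 12 fibroblast genes summed to 154 and 42.5 TPM in the *Tsc2* KO libraries, to 172 and 130.1 in wild-type and to 129.9 and 131 in *Nprl2* KO. In *Tsc2* KO, *Hmga2* was at 20.5 TPM in the library with a sum of 154 and at 21.7 TPM in that with 42.5. The 9 fibroblast genes tested had log2 fold changes of -1.39 to -0.09 in *Tsc2* KO with SEs of 0.36 to 1.13 (edgeR adjusted p between 0.142 and 0.904). Embryonic fibroblasts also use Igf2bp genes. The part of fibroblast RNA in the values of *Hmga2* and of the Igf2bp genes was not tested. Reads shared with the pseudogene *Hmga2-ps1* are divided by kallisto. *Hmga2-ps1* was at 1.23 and 1.1 TPM in wild-type, 2.12 and 1.3 in *Nprl2* KO, against 1.67 and 1.41 in *Tsc2* KO. The pseudogene differed from wild-type by 0.55 ± 0.46 on the log2 scale for *Nprl2* KO and by 0.33 ± 0.46 for *Tsc2* KO (edgeR adjusted p = 0.537 and 0.633).

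*Lin28a* moved the other way. It was at 338 and 332 TPM in wild-type, 249 and 252 in *Nprl2* KO, against 164 and 142 in *Tsc2* KO, with no overlap between genotypes. *Tsc2* KO was lower than wild-type by 1.16 on the log2 scale, at -1.16 ± 0.08 (2.24-fold, edgeR adjusted p = 1.3e-06). *Lin28b* was at 14.8 and 14.5 TPM in wild-type, 14.5 and 16.3 in *Nprl2* KO, against 9.31 and 9.28 in *Tsc2* KO. Its change in *Tsc2* KO was -0.69 ± 0.10 (edgeR adjusted p = 3.5e-04).

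The other genes that fell in *Tsc2* KO were *Trim71*, *Hmga1* and *Igf2bp1*. *Trim71* was at 54.8 and 52.2 TPM in wild-type, 45.1 and 36.3 in *Nprl2* KO, against 34.0 and 34.7 in *Tsc2* KO, and fell by 0.67 on the log2 scale in *Tsc2* KO (-0.67 ± 0.10, edgeR adjusted p = 3.5e-04). *Hmga1* was at 281 and 289.6 TPM in wild-type, 339.8 and 311 in *Nprl2* KO, against 215 and 178 in *Tsc2* KO, and *Tsc2* KO differed from wild-type by -0.57 ± 0.09 on the log2 scale (edgeR adjusted p = 9.9e-04). *Igf2bp1* was at 143 and 157 TPM in wild-type, 114 and 128 in *Nprl2* KO, against 116 and 117 in *Tsc2* KO, with -0.40 ± 0.07 (edgeR adjusted p = 0.00172). The wild-type libraries were the highest for *Igf2bp1*, and the KOs overlapped.

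*Igf2bp3* was the other gene to rise in *Tsc2* KO. It was at 52.6 and 53.0 TPM in wild-type, 45.4 and 42.9 in *Nprl2* KO, against 72 and 66.3 in *Tsc2* KO. The rise over wild-type was 0.36 ± 0.07 on the log2 scale (edgeR adjusted p = 0.00372). *Igf2bp2* was at 70.6 and 63.4 TPM in wild-type, 58.1 and 47.5 in *Nprl2* KO, against 71.4 and 62.1 in *Tsc2* KO, and the *Tsc2* KO libraries overlapped with wild-type (-0.04 ± 0.11, edgeR adjusted p = 0.83).

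**Figure D3:**
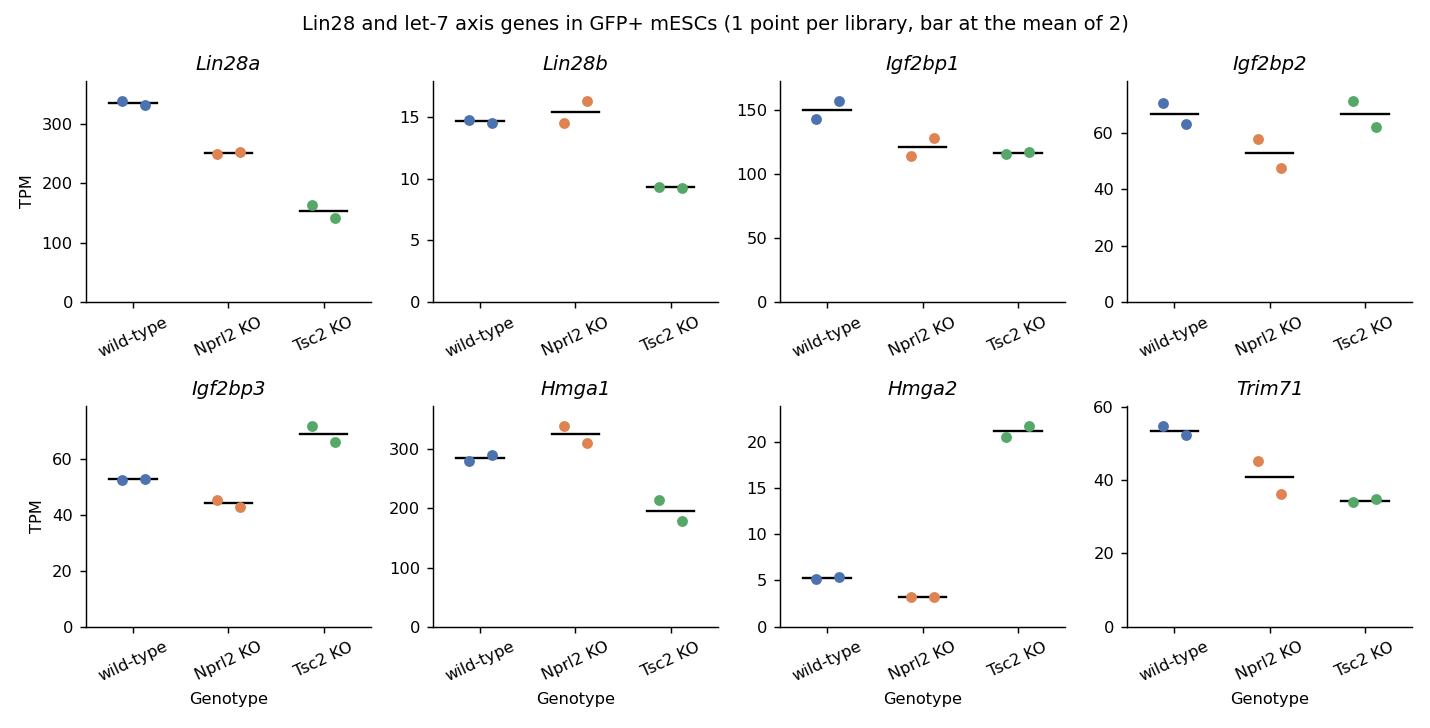
TPM of the 8 genes in each GFP+ library by genotype, with bars at the mean of 2 libraries and every axis starting at 0. *Hmga2* is at 20.5 and 21.7 in *Tsc2* KO against at most 5.40 elsewhere, and *Lin28a* falls from wild-type to *Nprl2* KO to *Tsc2* KO.

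In *Nprl2* KO the changes were small. *Lin28a* and *Hmga2* were lower and the other 6 genes did not pass, where 6.43% of all genes passed. *Lin28a* changed by -0.38 ± 0.07 on the log2 scale (1.3-fold, edgeR adjusted p = 0.0105) and *Hmga2* by -0.64 ± 0.14 (1.56-fold, edgeR adjusted p = 0.0187). The median log2 fold change of the 8 was -0.28, against 0.00 over all genes. Neither call held under every leave-one-out fit. Without wild-type library 1 or 2 or *Nprl2* KO library 1 or 2, the edgeR adjusted p of *Lin28a* was 0.0513, 0.0522, 0.0601 and 0.0664. That of *Hmga2* was 0.0802, 0.0659 and 0.095 without wild-type library 2 and *Nprl2* KO libraries 1 and 2, and DESeq2 gave 0.0525. *Trim71* stood just outside the threshold, with -0.35 ± 0.09 (edgeR adjusted p = 0.0507, 0.00868 without *Nprl2* KO library 1, and 0.0385 with DESeq2). *Igf2bp1* had -0.26 ± 0.07 (edgeR adjusted p = 0.0558, and 0.0288 with DESeq2), and -0.35 without wild-type library 1. *Igf2bp2* had -0.30 ± 0.11 (edgeR adjusted p = 0.157), and -0.47 without *Nprl2* KO library 1. Without the filter on low counts *Trim71*, *Igf2bp1*, *Igf2bp2* and *Hmga1* passed as well (edgeR adjusted p = 0.0013, 0.00141, 0.00775 and 0.0495). With the replicate number added to the fit, *Igf2bp1*, *Igf2bp2*, *Igf2bp3* and *Trim71* passed as well (edgeR adjusted p = 0.00603, 0.00294, 0.0333 and 0.00348). Whether the numbers pair the samples is not known. For *Igf2bp3* the value was -0.21 ± 0.08, for *Hmga1* 0.22 ± 0.09 and for *Lin28b* 0.12 ± 0.10.

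Set against each other, the KOs differed at many genes: 34.2% of all genes passed and 6 of the 8 did, with a median log2 fold change of -0.23 for the 8 and -0.01 for all genes. *Hmga2* was 6.15-fold higher in *Tsc2* KO than in *Nprl2* KO (2.62 ± 0.12 on the log2 scale, edgeR adjusted p = 5.2e-08) and *Igf2bp3* 1.49-fold higher (0.57 ± 0.07, edgeR adjusted p = 1.1e-04). *Lin28b* (-0.81 ± 0.10), *Hmga1* (-0.79 ± 0.09) and *Lin28a* (-0.79 ± 0.08) were lower, with edgeR adjusted p = 7.5e-05, 8.7e-05 and 1.2e-05. *Trim71* differed by -0.32 ± 0.10 (edgeR adjusted p = 0.0221). It passed under 9 of 14 alternatives, and not with limma on log2(TPM + 1) or log2(TPM + 0.1) (limma adjusted p = 0.153 and 0.157). The log2 fold change of *Trim71* was -0.15 without *Nprl2* KO library 1, and -0.32 and -0.31 without *Tsc2* KO libraries 1 and 2. *Igf2bp2* (0.26 ± 0.11, edgeR adjusted p = 0.099, 0.0201 without *Nprl2* KO library 1 and 0.046 without *Tsc2* KO library 2) and *Igf2bp1* (-0.14 ± 0.07, edgeR adjusted p = 0.18) did not pass. Of all genes that passed, 51.3% were higher in *Tsc2* KO, and with limma on log2(TPM + 1) 61.8% were.

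**Figure D4:**
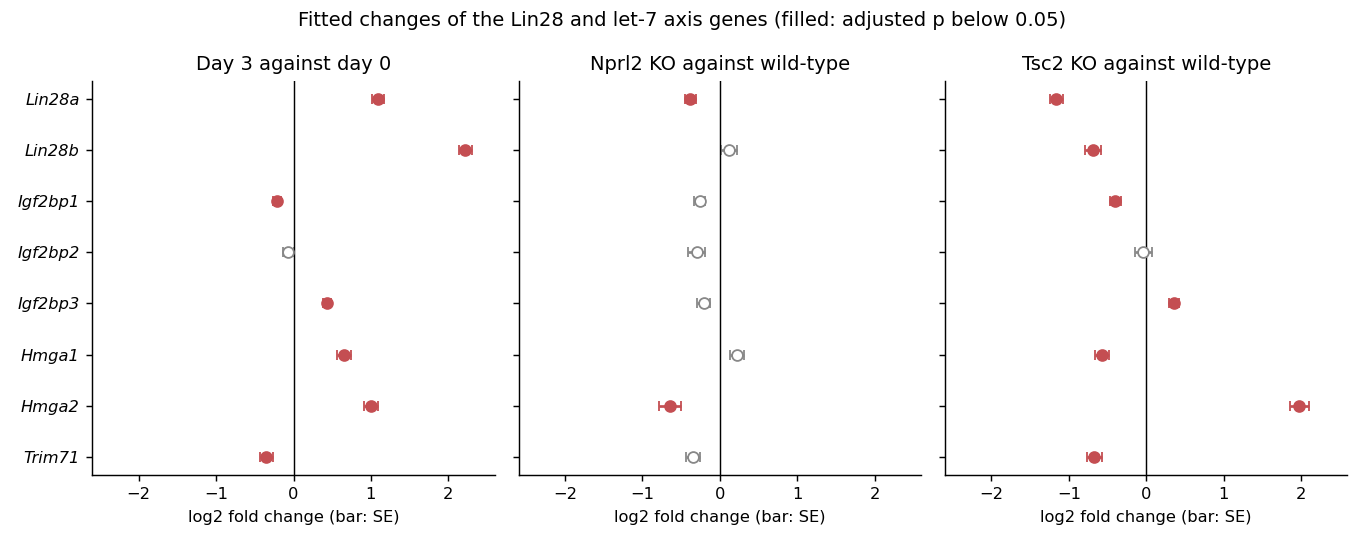
Fitted log2 fold changes of the 8 genes with their SE as bars, for day 3 against day 0 and for each KO against wild-type GFP+ cells. Filled points have an adjusted p below 0.05; *Lin28a*, *Lin28b* and *Hmga1* are higher at day 3 and lower in *Tsc2* KO, while *Hmga2* and *Igf2bp3* are higher in both.

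*Lin28a*, *Lin28b* and *Hmga1* were higher at day 3 and lower in *Tsc2* KO, *Hmga2* and *Igf2bp3* were higher in both comparisons, and *Igf2bp1* and *Trim71* were lower in both. Genes of the formative state, which follows the naive one, were read beside them. *Fgf5*, *Otx2*, *Dnmt3b*, *Pou3f1* and *Sox3* summed to between 108 and 133 TPM at day 0, 1242 and 1342 at day 1 and 1284 and 1574 at day 3. In GFP+ cells the sum was 389 to 467 TPM in wild-type, 536 to 631 in *Nprl2* KO and 111 to 115 in *Tsc2* KO. Most of it was *Dnmt3b*, at 317 to 359.7 TPM in wild-type. Of these 5 genes, 5 rose by day 1, 4 fell in *Tsc2* KO and 1 rose in *Nprl2* KO. *Nanog* and *Zfp42*, of the naive state, were higher in *Tsc2* KO (0.91 ± 0.08 and 0.52 ± 0.06 on the log2 scale), and *Zfp42* was lower in *Nprl2* KO (-0.43 ± 0.06). In *Nprl2* KO the formative sum was above wild-type while *Lin28a* was below it. The part of the cells' state in the values of the 8 genes was not tested.

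The levels of *Lin28a* in order of mean TPM were day 2 (494 ± 25.1), day 3 (443 ± 26.3), day 1 (436 ± 13.7), wild-type GFP+ (335 ± 3.91), *Nprl2* KO (250.4 ± 2.26), day 0 (196 ± 27.9) and *Tsc2* KO (153 ± 15.6), with the SD over 3 libraries per day or 2 per genotype. Days 1 and 3 overlapped. For *Hmga2* the order was *Tsc2* KO (21.1 ± 0.829), day 3 (19.3 ± 1.87), days 2 (10.3 ± 0.312), 1 (9.75 ± 1.31) and 0 (9.10 ± 0.170), wild-type GFP+ (5.25 ± 0.212) and *Nprl2* KO (3.25 ± 0.0136). *Tsc2* KO and day 3 overlapped in range. The time course and the GFP+ libraries were fitted apart, so that the order between them is a description.

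Genes that act on or with let-7 or its precursors were read from a list of 18. It holds enzymes and other factors, and also *Tut4*, *Tut7* and *Dis3l2*, which tag and degrade the precursors. Over the 3 days 7 were higher, 7 lower and 4 did not pass, where 70.9% of all genes passed, with a median log2 fold change of -0.01. *Ago4*, an Argonaute gene, ranked first among the rises (1.1 ± 0.40, edgeR adjusted p = 0.0192) but was barely expressed, at 0.108 to 0.274 TPM at day 0 and 0.336 to 0.633 at day 3. The next largest rises were of *Prkra* (0.79 ± 0.11, 2.0e-06), a partner of Dicer, and of *Tut4* (0.41 ± 0.06, 1.1e-05) and the Argonaute gene *Ago1* (0.41 ± 0.10, 0.00201). The largest falls were of *Ddx17* (-0.65 ± 0.07, edgeR adjusted p = 4.1e-08) and *Drosha* (-0.43 ± 0.07, 9.7e-06), which act in the nucleus on the primary transcripts, and of *Tarbp2* (-0.44 ± 0.06, 3.5e-06), a partner of Dicer.

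*Dicer1*, the enzyme that cuts precursors to mature microRNAs, was lower in both KOs. It was at 30.4 and 30.1 TPM in wild-type GFP+ cells, 16.1 and 15.6 in *Nprl2* KO, against 15.1 and 13.5 in *Tsc2* KO, and between 22.3 and 30.5 in all time-course libraries. All KO libraries lay below both wild-type libraries, which both KO comparisons share. The log2 fold change was -0.88 ± 0.08 in *Nprl2* KO (edgeR adjusted p = 8.0e-05) and -1.11 ± 0.08 in *Tsc2* KO (edgeR adjusted p = 2.2e-06). In *Nprl2* KO, 2 of 17 listed genes tested passed, where 6.43% of all genes did, *Dicer1* and *Ago2* (-0.43 ± 0.07, edgeR adjusted p = 0.00429). In *Tsc2* KO 3 were higher and 6 lower, where 29.1% of all genes passed. *Dis3l2*, which degrades tagged let-7 precursors, rose from 14.3 and 16.1 TPM in wild-type to 25.3 and 24.6 in *Tsc2* KO (0.68 ± 0.11, edgeR adjusted p = 7.5e-04), and *Tut7*, which tags them, by 0.33 ± 0.11 (edgeR adjusted p = 0.042). *Ago2* rose by 0.21 ± 0.07 (edgeR adjusted p = 0.0388), and *Drosha* (-0.37 ± 0.06) and *Syncrip* (-0.29 ± 0.07) fell. Of the genes that host let-7 precursors, *Huwe1*, which holds let-7f-2 and miR-98, was lower in *Nprl2* KO (-0.32 ± 0.06, edgeR adjusted p = 0.0112) and in *Tsc2* KO (-0.55 ± 0.06, edgeR adjusted p = 5.6e-05).

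A list of 28 other let-7 targets, written from general knowledge and holding *Dicer1*, was read in the same way. The 7-base match was found in the 3′ UTRs of 19 of the 28. Over the 3 days 18 were higher, 5 lower and 5 did not pass, where 70.9% of all genes passed, with a median log2 fold change of 0.37 against -0.01 for all genes. The largest rise was of *Igdcc4*, which went from between 3.34 and 5.14 TPM at day 0 to between 38.1 and 43.3 at day 3 (3.12 ± 0.14, edgeR adjusted p = 7.7e-11). *Stard13* (2.69 ± 0.26) and *Fignl2* (2.41 ± 0.15) followed. *Smarcad1* (-1.32 ± 0.08), *Mycn* (-0.70 ± 0.11) and *Hic2* (-0.58 ± 0.06) fell the most.

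In *Tsc2* KO, 12 of the 28 were lower, 1 was higher and 15 did not pass, where 29.1% of all genes passed, 2050 higher and 1946 lower, with a median of -0.24. *Mycn*, a transcription factor of the Myc family, was at 181 and 169 TPM in wild-type, 201 and 184 in *Nprl2* KO, against 36.3 and 32.6 in *Tsc2* KO, a fall of 2.38 on the log2 scale (-2.38 ± 0.08, edgeR adjusted p = 9.4e-09). *Stard13* (-1.89 ± 0.33) and *Dicer1* were the next, and *Igf1r*, a receptor upstream of mTORC1, was the gene that rose (0.50 ± 0.12, edgeR adjusted p = 0.00734). The 7-base match was not found in the 3′ UTRs of *Mycn*, *Stard13* or *Dicer1*, and other forms of seed match were not searched for. In *Nprl2* KO 4 were lower, the largest being *Dicer1*, *Cdk6* (-0.63 ± 0.17) and *Tgfbr1* (-0.51 ± 0.10), 1 was higher (*Nr6a1*, 0.44 ± 0.08) and 23 did not pass, where 6.43% of all genes passed.

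**Figure D5:**
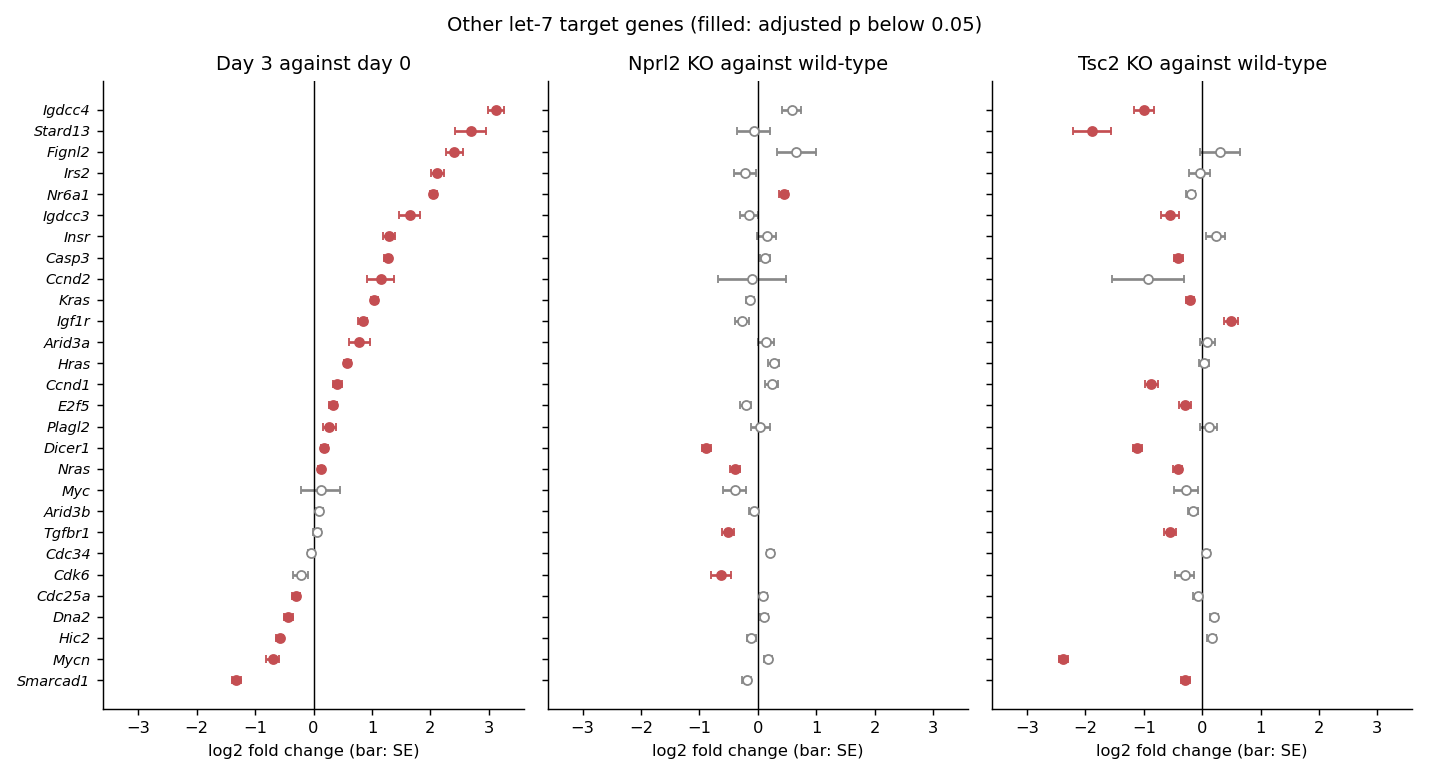
Log2 fold changes of 28 other let-7 target genes with their SE as bars, in the order of the change from day 0 to day 3. Filled points have an adjusted p below 0.05; 18 genes are higher at day 3, and 12 are lower in *Tsc2* KO, *Mycn* by the most.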

How the data were processed

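For each of 18 mRNA-seq libraries the authors deposited kallisto 0.42.1 estimated counts and TPM for each RefSeq transcript (34079), with no scaling between libraries beyond TPM itself, and a series table of TPM per gene. The submitters' processing notes name mm10. Paired-end reads of 75 bases are stated for the GFP+ libraries. The authors' DESeq2 tables hold fold changes and p-values and were not used. The 8 genes and all lists were chosen with earlier results of these data known.

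Transcripts were assigned to genes through RefSeq (33709) or GENCODE M21 (196), and 174 were left out. Counts without a gene were 1.65% to 3.57% of a library. Estimated counts were summed per gene and rounded. edgeR 4.0.16 in R 4.3.3 was run with TMM, its low-count filter, robust fits of the quasi-likelihood model and p-values adjusted by Benjamini-Hochberg (threshold 0.05), in 1 fit of the 12 time-course libraries (14382 genes) and 1 of the 6 GFP+ libraries (13725). An SE is the absolute log2 fold change over the square root of the F statistic. TPM of the 8 genes came from the series table, which equalled the sums over transcripts in 144 of 144 values within 0.1%. The fits were tested on simulated data. Far fewer genes changed there than passed here, so that this does not check calls at such shares. From each list at most the 3 largest calls in each direction are named, ties included. Likeness is Pearson's r of log2 CPM, over genes with a mean of at least 1.

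The alternatives were DESeq2 1.42.0, upper-quartile normalization, no filter, a filter of 10 or more counts in all libraries, a block for the replicate number, limma 3.58.1 on log2(TPM + 1) and log2(TPM + 0.1), the 2 groups alone, and each library left out. The limit that a count of 0 allows covers counting error only. A check of *Hmga1* that was added after seeing the data is not reported here.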

Additional observations from a re-analysis of the deposited data

Results flagged for a closer look

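For 4 of the 8 genes the fitted changes from wild-type had opposite signs in the KOs, and the direct comparison of *Tsc2* KO with *Nprl2* KO passed. Of all genes tested, 34.2% passed the direct comparison. The share of all genes that met both conditions was not counted, so that the 4 are a description. Of these 4, *Hmga2* alone passed in both KOs, and its call in *Nprl2* KO held under 8 of 14 alternatives. The direct comparison is a test of the difference between the KO effects because the wild-type libraries are shared. *Hmga2* differed by 2.62 on the log2 scale, where *Nprl2* KO had -0.64 and *Tsc2* KO 1.98 against wild-type. *Igf2bp3* differed by 0.57, with -0.21 and 0.36, of which the first did not pass. *Lin28b* differed by -0.81, with 0.12 and -0.69, of which the first did not pass. *Hmga1* differed by -0.79, with 0.22 and -0.57, of which the first did not pass. Groups of 2 or 3 libraries are too small for a check of single outlying libraries.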

How the results depend on the processing

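Of 976 values of the 8 genes under alternative settings, 901 kept their direction and their side of the threshold, 23 lost the call, 25 gained one and 27 turned sign, all of the last being small changes that did not pass. In *Nprl2* KO the count of genes called was 883, and became 1667 without a filter, 2072 with the replicate block, 516 with limma on log2(TPM + 1), 493 with limma on log2(TPM + 0.1) and 339 to 783 with 1 library left out. The number of the 8 genes called there was 2, and became 6 without a filter, 6 with the replicate block (*Igf2bp1*, *Igf2bp2*, *Igf2bp3* and *Trim71* beside *Lin28a* and *Hmga2*), 1 with limma on log2(TPM + 1), 1 with the 2 groups alone and 0 to 2 with 1 library left out. With 1 library left out, the genes called for day 3 against day 2 went from 4525 to between 2969 (without day 2 replicate 2) and 5055, for *Tsc2* KO from 3996 to between 2225 (without *Tsc2* KO replicate 2) and 3974, with 2661 without wild-type replicate 1, and for the KOs against each other from 4692 to between 2974 (without *Tsc2* KO replicate 2) and 4791. The cause was not tested.

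Sign changes were as follows. From day 1 to day 2, *Hmga1* (0.01) was -0.02 with DESeq2 and -0.00 without a filter, and between -0.09 and 0.12 with 1 library left out. *Hmga2* (-0.03) was 0.05 with upper-quartile normalization, 0.00 with at least 10 counts, 0.08 and 0.09 with limma at the pseudocounts 1 and 0.1, and between -0.13 and 0.05 with 1 library left out. *Igf2bp2* (0.05) was between -0.01 and 0.08 with 1 library left out. From day 2 to day 3, *Hmga1* (-0.00) was 0.02 with DESeq2, 0.01 without a filter, 0.00 with the replicate block, 0.04 with limma at either pseudocount and between -0.11 and 0.09 with 1 library left out, and *Igf2bp1* (0.02) was between -0.01 and 0.05. From day 0 to day 3, *Igf2bp2* (-0.07) was 0.02 with limma at either pseudocount. In *Tsc2* KO, *Igf2bp2* (-0.04) was between -0.16 and 0.08 with 1 library left out.

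The replicate numbers were not treated as pairs in the main fits. In the time course, same-numbered libraries had correlations of their deviations between -0.113 and 0.133. Differently numbered libraries there had between -0.199 and 0.221. In GFP+ cells same-numbered libraries had between 0.0848 and 0.164. With only 2 numbers, each differently numbered pair had the same value with a minus sign. The check cannot tell whether the numbers pair the GFP+ samples. With 2 libraries per genotype, leaving 1 out assumes that the lone library varies like the other genotypes. The counts cannot show mature let-7, which the libraries do not capture.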
